A study of Mus musculus with 4 samples.

Results

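The miR-199a/214 unit is a pair of miRNA genes, Mir199a-2 and Mir214, that lie in one non-coding transcript, Dnm3os. Its guides are read by 3 assays, mmu-miR-199a-3p, mmu-miR-199a-5p and mmu-miR-214, chosen by their miRBase release 14 names from the 750 miRNA assays of the series. All 3 were detected in every library. MicroRNA levels were measured by TaqMan quantitative PCR in total RNA of the right lung of mice, taken after the pulmonary artery was flushed. The groups were adults of 2 months kept for 72 h in 95% oxygen (hyperoxia), adults kept in room air, newborns kept for 72 h in 95% oxygen and collected at day 3, and newborns kept in room air and collected at day 3, with 1 library per group. No allele, strain or further agent is named, the mothers that nursed the pups alternated between both atmospheres, and how many animals went into a library is not stated. The RNA came from whole lung, so the mesenchymal origin in the unit's name cannot be checked in these libraries.

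Each miRNA hairpin is cut into 2 arms, and an arm that enters the silencing complex represses mRNAs that pair with its seed, bases 2 to 8 from the 5′ end. Dnm3os is expressed in embryonic mesenchyme and in fibroblasts, is driven by the transcription factor Twist1, and mice without it have skeletal and growth defects. miR-199a-5p is known in lung fibroblasts as a repressor of caveolin-1 that acts downstream of TGF-beta, miR-199a-3p as a repressor of growth factor signalling such as Met, and miR-214 as a repressor of Ezh2.

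The mature sequences show which assays can be told apart, and the capitals mark the seed. They are RefSeq's for GRCm38.p6, where all 3 members matched an entry, miR-214 under its later name miR-214-3p.
mmu-miR-199a-5p: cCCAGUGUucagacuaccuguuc
mmu-miR-199a-3p: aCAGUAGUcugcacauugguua
mmu-miR-214-3p: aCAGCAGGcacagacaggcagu
mmu-miR-214-5p: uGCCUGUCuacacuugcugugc
mmu-miR-761: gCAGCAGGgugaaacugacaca

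The 3 members have different seeds, so they form no seed family among themselves. The miR-199a-3p sequence is made by 3 hairpins, Mir199a-2, Mir199a-1 and Mir199b, so its assay sums 3 genes of which only Mir199a-2 lies in Dnm3os. The miR-199a-5p sequence is made by 2 hairpins, Mir199a-2 and Mir199a-1. The Mir199b hairpin holds the letters of the miR-199a-5p seed, CCAGUGU, outside its miR-199a-3p arm. The other arm of Mir199b, listed on the cards as miR-199b*, has no mature entry in this table. Whether the miR-199a-5p assay also reads that arm was not tested. The miR-214-3p sequence is made by 1 hairpin in this table, Mir214. miR-761 shares the seed of miR-214-3p, and its assay had a threshold cycle (Ct) of 40, the value of a well with no signal, in all 4 libraries.

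The hairpins show how the arms lie, with both arms in capitals, and the first pair comes from Dnm3os.
Mir199a-2, chr1:162217814-162217923, plus strand: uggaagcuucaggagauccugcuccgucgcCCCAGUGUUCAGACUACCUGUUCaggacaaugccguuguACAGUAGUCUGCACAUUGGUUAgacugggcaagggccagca
Mir214, chr1:162223368-162223477, plus strand: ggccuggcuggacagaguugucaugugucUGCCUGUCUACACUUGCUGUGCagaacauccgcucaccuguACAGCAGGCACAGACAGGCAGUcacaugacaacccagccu
Mir199a-1, chr9:21496495-21496564, minus strand: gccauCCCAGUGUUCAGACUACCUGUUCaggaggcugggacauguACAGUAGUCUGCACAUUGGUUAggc

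On GRCm38.p6, Dnm3os runs from 162217623 to 162225550 on the plus strand of chromosome 1, inside the span of Dnm3, which is on the minus strand. The Mir199a-2 hairpin starts 192 bases into Dnm3os and the Mir214 hairpin 5746 bases into it, with 5444 bases between them. Outside Dnm3os, Mir199a-1 lies on chromosome 9 and Mir199b on chromosome 2 (32318460 to 32318569, plus strand). The arms are separated by 16 bases in Mir199a-2, 17 in Mir199a-1 and 19 in Mir214.

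The Dnm3os promoter is shown because 2 of the hairpins share it; the promoter itself was not measured. It runs from 250 bases before to 50 bases after the start (RefSeq, GRCm38.p6, chr1:162217373-162217672, plus strand), with motif matches in capitals.
Dnm3os promoter: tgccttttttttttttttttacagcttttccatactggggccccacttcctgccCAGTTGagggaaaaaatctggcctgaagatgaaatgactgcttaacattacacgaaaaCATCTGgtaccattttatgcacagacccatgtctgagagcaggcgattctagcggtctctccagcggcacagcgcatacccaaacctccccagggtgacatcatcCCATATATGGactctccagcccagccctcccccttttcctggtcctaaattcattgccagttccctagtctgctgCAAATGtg
The E-box CANNTG, the core bound by Twist1 and other helix-loop-helix factors, reads the same class of letters on both strands and matched at 3 places, of which 1 is CATCTG. Of 32851 promoters of this length, 72.3% hold at least 1 E-box and 17.6% hold 3 or more. CATCTG or its complement CAGATG is found in 17.2% of them. The CArG box, the core bound by serum response factor, matched once, and 1.63% of the promoters hold it. The 4 matches do not overlap, and a match is a description of letters and not of a bound site.

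Levels are given as log2 values against the small nucleolar RNA snoRNA202 of the well's own card, with more RNA at higher values. Each library was read on 2 cards, and all 3 members sit on the first. A unit of 1 is 2-fold only at perfect amplification, and levels of different assays are not set against each other, since their efficiencies are unknown. Detection means a Ct of 35 or below, which 468, 468, 507 and 477 of the 750 assays met in adult hyperoxia, adult room air, neonatal hyperoxia and neonatal room air. The error of a difference comes from 4 control RNAs read on both cards. This technical SD was 0.65 log2 for adult against neonatal room air, 0.95 for adult against neonatal hyperoxia, 0.26 for hyperoxia against room air in neonates and 0.33 in adults. It leaves out variation between animals, and with 1 library per group no replicate stands behind a difference.

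On the snoRNA202 scale all 3 guides read lower in adult than in neonatal lung, and the decrease passed the test for miR-214 and miR-199a-5p. Among these 3 assays miR-214 differed most, miR-199a-5p less and miR-199a-3p least, in both atmospheres. The order depends on the assay: a rat-named miR-214 assay on the second card was at -1.42 in room air, where miR-199a-5p was at -2.42. In bulk lung RNA, fewer cells of a type and less RNA per cell cannot be told apart.

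miR-214, the guide of the second hairpin, stood at -7.06 in adult hyperoxia and -6.55 in adult room air, against -3.92 in neonatal hyperoxia and -3.68 in neonatal room air (Ct 19.9 and 20.0 in the adult libraries, 17.4 and 17.7 in the neonatal ones). Both adult values lay below both neonatal values, with a gap between the ages far wider than the spread within an age. The difference was -2.86 log2 in room air and -3.15 in hyperoxia, each over 3 times its technical SD. In an additive model of age and oxygen, fitted with limma to the 426 assays detected in all 4 libraries, miR-214 fell with age by 3.00 ± 0.31 log2 (SE; Benjamini-Hochberg adjusted p = 0.0127), an 8.02-fold lower level.

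miR-199a-5p, the 5′ arm of the first hairpin, stood at -15.8 in adult hyperoxia and -15.4 in adult room air, against -13.6 in neonatal hyperoxia and -13.0 in neonatal room air. This assay crossed its threshold late, at Ct 28.6 and 28.8 in the adult libraries and 27.2 and 27.0 in the neonatal ones, and the ages did not overlap. The difference was -2.42 log2 in room air and -2.13 in hyperoxia, and it fell with age by 2.28 ± 0.31 (SE; limma, adjusted p = 0.0214).

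miR-199a-3p, the 3′ arm, gave the earliest signal of the members, at Ct 16.8 and 17.0 in adult hyperoxia and room air and 15.9 and 16.9 in neonatal hyperoxia and room air. Its levels were -3.98 and -3.58 in the adult libraries and -2.42 and -2.84 in the neonatal ones, in the same order. The ages did not overlap on this scale, but the raw Ct of neonatal room air lay between those of adult hyperoxia and adult room air. The difference was -0.73 in room air, close to its technical SD of 0.65, and -1.56 in hyperoxia, against 0.95. With a fitted age effect of -1.15 ± 0.38 log2 it did not pass (limma, adjusted p = 0.100).

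**Figure D1:**
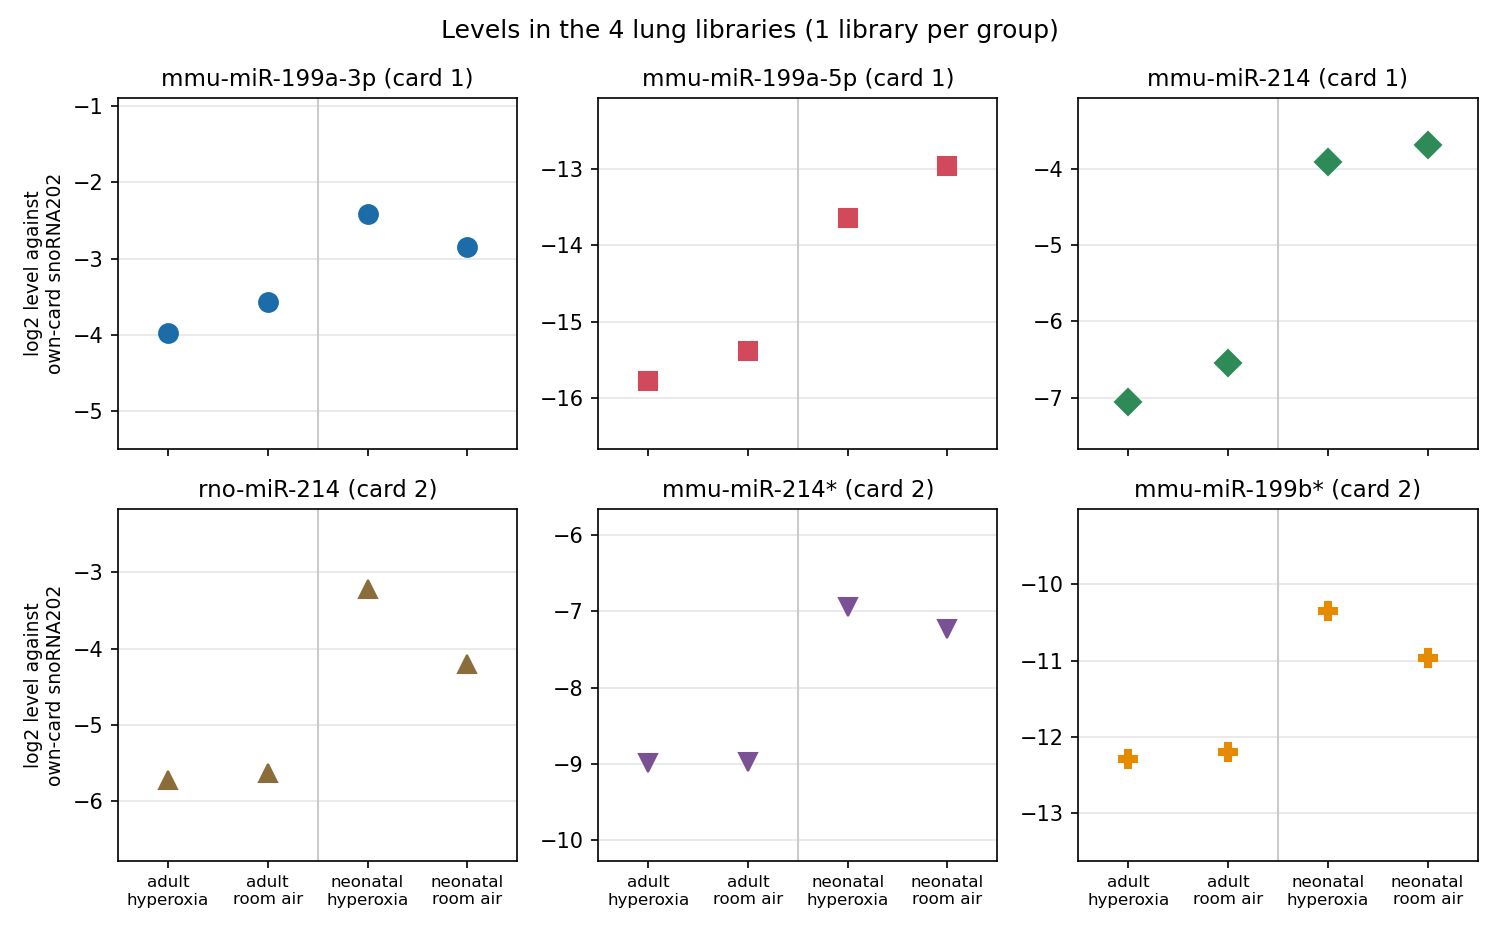
Log2 level against own-card snoRNA202 (vertical axis, 4.6 units tall in every panel) in the 4 libraries, 1 point per library, for the 3 members (top) and 3 further assays of the same or a related hairpin (bottom). In every panel both adult points lie below both neonatal points, on a scale where the median age effect of all 426 assays was -0.84. The share of all assays with such a separation was not counted. The drop is deepest for mmu-miR-214 and shallowest for miR-199a-3p.

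These counts have to be read against the table as a whole, in which most assays were lower in adult lung on this scale. Between the room air libraries 2 of the 3 members, miR-214 and miR-199a-5p, differed by at least 2-fold, lower in the adult, as did 43.0% of the 435 assays compared. Between the hyperoxia libraries all 3 were at least 2-fold lower, as were 49.3% of 450. In the fit 2 of 3 fell with age, as did 30.0% of 426. How many of all assays had ages that did not overlap was not counted. That separation is therefore not shown to be particular to the members. The median of the members was -2.42 in room air and -2.13 in hyperoxia, against -0.57 and -0.98 over all assays.

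Distances were also taken from the median of the adult minus neonatal differences of the first card. By this measure miR-214 was at -2.47 log2 in room air and -2.20 in hyperoxia, and miR-199a-5p was at -2.03 and -1.18. miR-199a-3p was at -0.34 and -0.61 from that median, both smaller than the technical SD. The card median used as a reference below is another measure, taken over the Ct of each library's assays. With it miR-214 was at -1.72 in room air and -1.48 in hyperoxia, miR-199a-5p at -1.28 and -0.47, and miR-199a-3p at 0.41 and 0.10. Of all 435 assays, 17.7% lay below miR-214 in the room air comparison, 20.9% below miR-199a-5p and 48.0% below miR-199a-3p, which puts the last near the middle of the table.

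**Figure D2:**
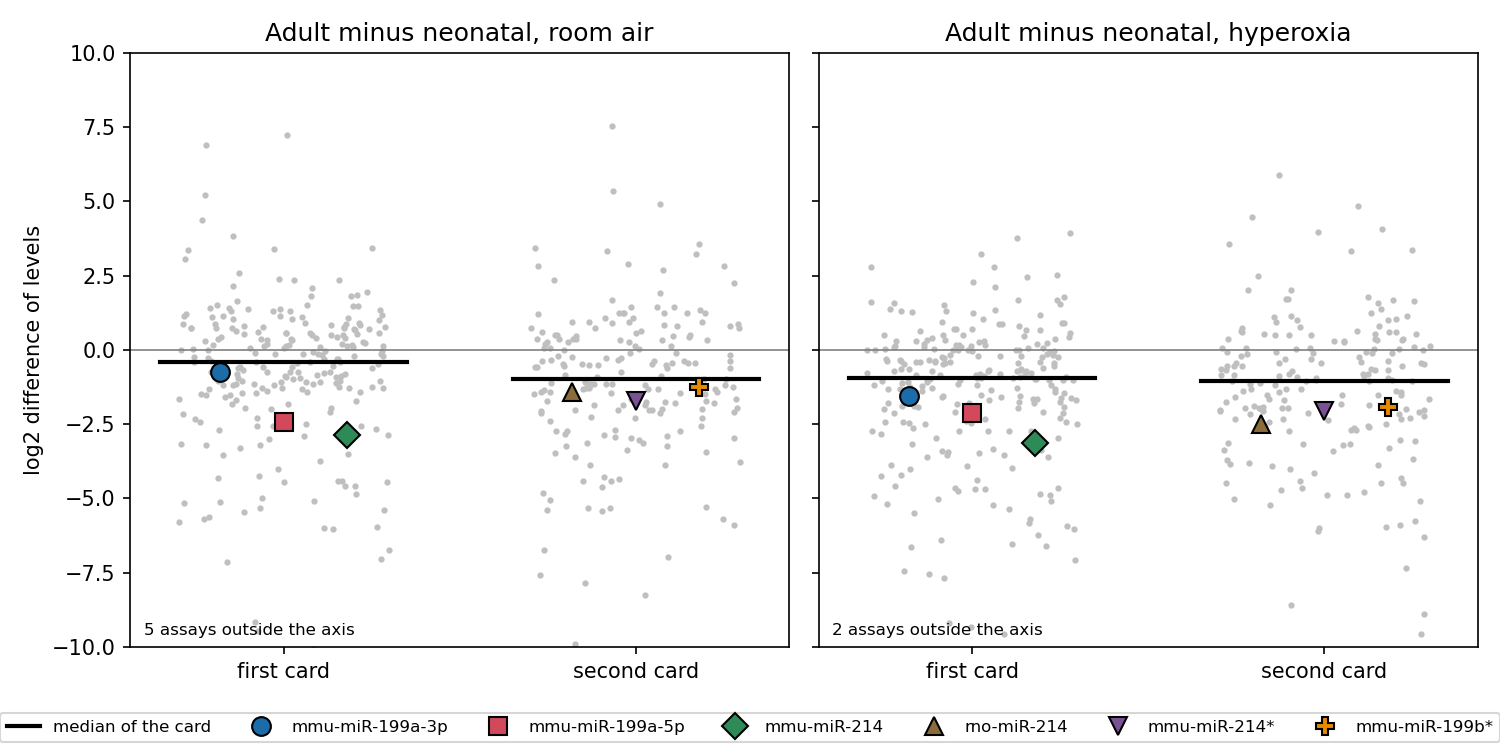
Log2 difference, adult minus neonatal, in room air (left) and in hyperoxia (right), for every assay compared (grey), by card, with the card's median as a black bar and the 6 assays of the unit and its relatives as coloured symbols. miR-199a-3p sits near the median of the first card, while miR-199a-5p and miR-214 lie below it among many other assays; 5 assays on the left and 2 on the right lie outside the axis.

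The age effect followed the reference RNA, and of the 3 members miR-214 alone kept its sign under all of 8 scalings. It lay below 0 with each of 7 references and with raw Ct, and its fall passed the test with all of these except U6, where it was -0.19 ± 0.29 (limma, adjusted p = 0.601). U6 itself differed by -2.65 log2 against snoRNA202 on the first card in room air, adult minus neonatal, and by -2.98 in hyperoxia. miR-199a-5p passed with snoRNA202, with the deposited values and with the mean of snoRNA135 and snoRNA202, and was at 0.54 with U6. For the members the deposited values equal the snoRNA202 scale, so they are no separate check of the age effect. miR-199a-3p ranged from -1.15 with snoRNA202 to 1.67 ± 0.32 with U6, where it rose (limma, adjusted p = 0.0236), and was at 0.26 with each card centred on its median. With raw Ct, a setting added after the data were seen, miR-214 was at -2.35 and miR-199a-5p at -1.62. The median of all assays moved over these settings, at -0.84 log2 with snoRNA202, 0.30 with the library mean, 0.38 with the card median and 1.19 with U6. With 1 residual degree of freedom the calls also need the spread that limma borrows across assays: by ordinary least squares 0 of 3 members passed (adjusted p = 0.187 for miR-214 and 0.190 for miR-199a-5p), and with all 750 assays kept 0 passed in limma (adjusted p = 0.0516 and 0.0707).

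**Figure D3:**
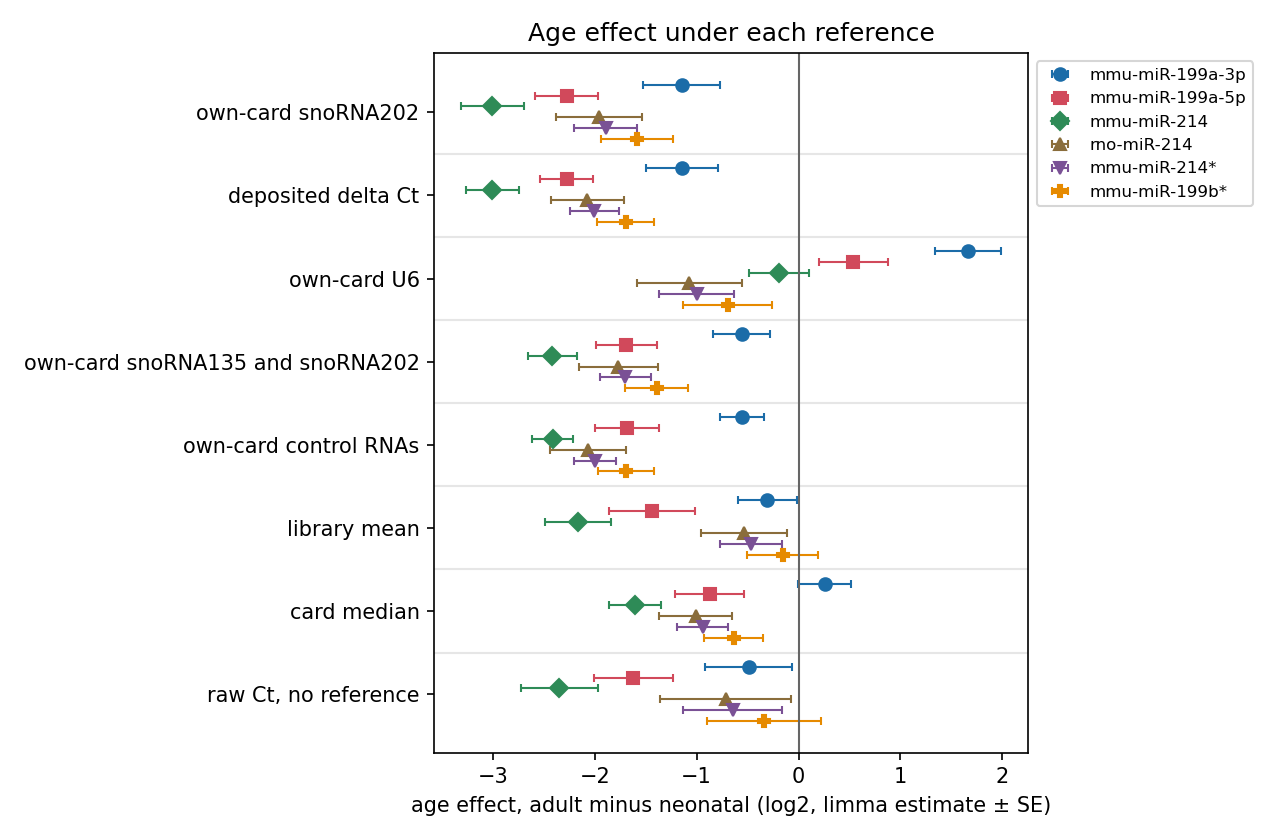
Age effect, adult minus neonatal (horizontal axis, log2, limma estimate with its SE as bars), of the 6 assays under 7 references and for raw Ct. The green diamond of miR-214 lies left of 0 in every row, from -3.00 to -0.19, and the blue circle of miR-199a-3p crosses from -1.15 to 1.67.

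Gaps between assays of the same card within a library do not depend on the reference, and the gaps between the members differed between libraries. Only the change of a gap is read, since its size mixes level with assay efficiency. The gap of miR-214 minus miR-199a-3p was -3.08 in adult hyperoxia and -2.97 in adult room air, against -1.50 in neonatal hyperoxia and -0.84 in neonatal room air. Both adult gaps lay below both neonatal gaps, with a change of -1.59 log2 within hyperoxia and -2.13 within room air.

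The gap between the arms of the miR-199a hairpins, 5p minus 3p, was -11.80 in adult hyperoxia and -11.81 in adult room air, against -11.23 in neonatal hyperoxia and -10.12 in neonatal room air. The adult libraries were nearly equal, and the neonatal room air library stood apart from the other 3. The change with age was -1.69 in room air and -0.57 in hyperoxia. miR-214 minus miR-199a-5p was 8.72 in adult hyperoxia and 8.83 in adult room air, against 9.73 in neonatal hyperoxia and 9.28 in neonatal room air. Its change with age was -0.44 in room air and -1.01 in hyperoxia. No test was run on these gaps, and their changes have no error estimate. First-card gaps between assays of the same miRNA name, rat-named minus mouse-named, also changed with age in room air. The changes were 0.03 for miR-1, -0.18 for miR-381, 1.03 for miR-224, -1.34 for miR-345-3p, 1.41 for miR-351 and -3.36 for miR-207. Unequal movement of the members' RNAs is therefore not shown. The technical SD comes from single RNAs set against snoRNA202 and compared between cards, so it is not the error of a gap. The 3p assay also reads Mir199b, and whether the 5p assay reads the similar other arm of Mir199b is not known. The part of Mir199b in the arm gap was not tested.

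**Figure D4:**
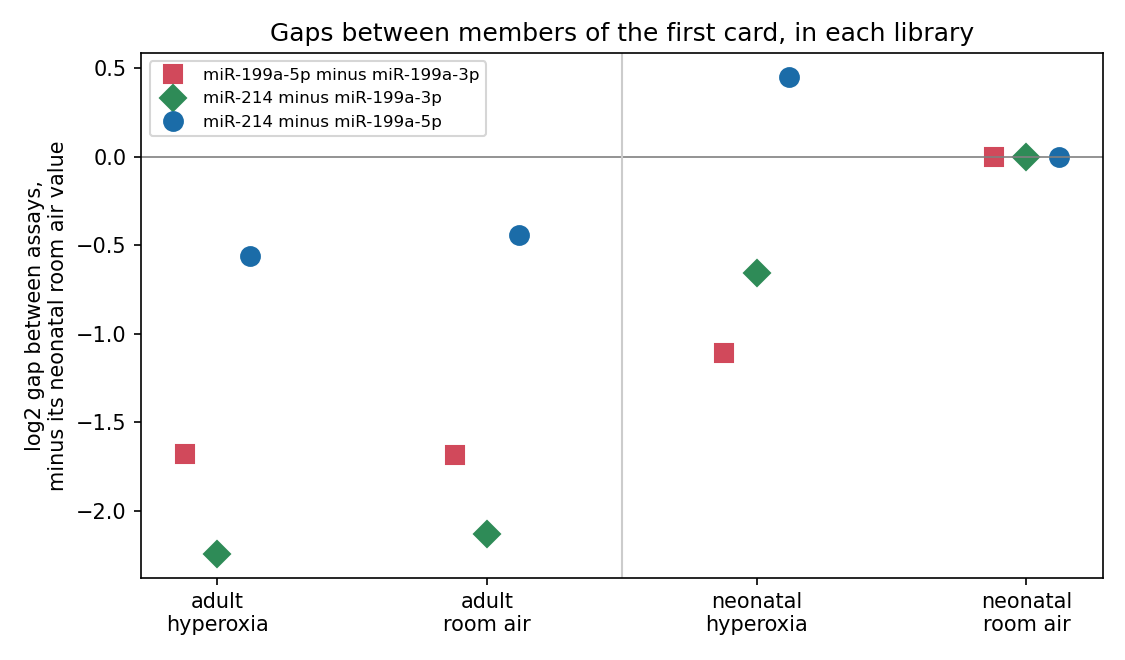
Gap between 2 assays of the first card in each library, minus the same gap in neonatal room air (vertical axis, log2; 1 point per library and gap). The gaps of miR-199a-5p and of miR-214 from miR-199a-3p are lowest in the adult libraries and intermediate in neonatal hyperoxia; that of miR-214 from miR-199a-5p is above its neonatal room air value in neonatal hyperoxia and below it in both adult libraries.

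The second card holds 3 assays of the same or a related hairpin, and all were lower in the adult libraries too. A second miR-214 assay is listed under the rat name rno-miR-214. It stood at -5.73 in adult hyperoxia and -5.62 in adult room air, against -3.22 in neonatal hyperoxia and -4.21 in neonatal room air, so the ages did not overlap. Its differences were -2.50 in hyperoxia and -1.42 in room air, and it fell with age by 1.96 ± 0.42 (SE; limma, adjusted p = 0.0480). That call was lost with 6 of the 7 other scalings, all but the deposited values.

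miR-214*, the 5′ arm of the Mir214 hairpin and listed as miR-214-5p in RefSeq, stood at -8.99 in adult hyperoxia and -8.97 in adult room air, against -6.94 in neonatal hyperoxia and -7.24 in neonatal room air. It was at -2.05 in hyperoxia and -1.73 in room air, and fell with age by 1.89 ± 0.31 (SE; limma, adjusted p = 0.0305). Both arms of Mir214 were thus lower in the adult libraries on the mouse-named assays.

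miR-199b*, the 5′ arm of the Mir199b hairpin outside Dnm3os, stood at -12.3 in adult hyperoxia and -12.2 in adult room air, against -10.4 in neonatal hyperoxia and -11.0 in neonatal room air. The difference was -1.93 in hyperoxia and -1.24 in room air, and the fitted effect of -1.58 ± 0.35 missed the threshold (limma, adjusted p = 0.0520), which it passed with the deposited values (adjusted p = 0.0479) and with all control RNAs (adjusted p = 0.0443).

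The size of these differences moved with the reference, while the sign of the fitted age effect did not: over the 8 scalings rno-miR-214, miR-214* and miR-199b* lay below 0 in each. The second card's snoRNA202 crossed at Ct 13.8 in adult hyperoxia and 13.7 in adult room air, against 14.6 in neonatal hyperoxia and 15.3 in neonatal room air. Without any reference, the room air difference was 0.23 log2 for rno-miR-214, -0.08 for miR-214* and 0.41 for miR-199b*, while mmu-miR-214 on the first card was at -2.24. With the library mean as reference the fitted age effects of these 3 assays were -0.53, -0.46 and -0.16 (limma, adjusted p = 0.368, 0.289 and 0.748).

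The miR-214 assays gave the same sign for age at different sizes. Set against its own card, the rat-named assay was 1.45 log2 above the mouse-named one in the room air age difference and 0.64 above it in hyperoxia. The gap was 1.22 in the response of neonates to oxygen, where the widest gap of a control RNA between cards was 0.59 (U6), and 0.41 in that of adults. In the series 26 miRNAs had a mouse-named and a rat-named assay, both detected in all 4 libraries, and their median absolute gap was 0.97 log2 for age in room air and 0.39 for oxygen in neonates. Of these, 5 had a wider gap than miR-214 for age in room air and 1 had a wider gap for oxygen in neonates. The same name does not show that 2 assays read the same sequence.

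Hyperoxia was compared with room air within each age. In neonates miR-199a-3p was 0.43 log2 above room air, miR-214 was at -0.23 and miR-199a-5p at -0.69. In adults all 3 lay below room air, miR-199a-3p at -0.40, miR-199a-5p at -0.40 and miR-214 at -0.52, where the median of all assays on the first card was -0.29. None reached 2-fold at either age, against 22.2% of 469 assays in neonates and 12.1% of 448 in adults that did so in either direction.

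In the additive fit the oxygen effects were 0.01 ± 0.38 for miR-199a-3p, -0.54 ± 0.31 for miR-199a-5p and -0.37 ± 0.31 for miR-214 (SE; limma, adjusted p = 0.993, 0.988 and 0.988). No member passed, and 0% of the 426 assays did, with 13 at an unadjusted p under 0.05. In adults all 3 differences were past the technical SD of 0.33 on the snoRNA202 scale, but between -0.07 and -0.27 with U6, with snoRNA135 and snoRNA202, with all control RNAs and with each card centred. They were above 0 with the library mean and with raw Ct. In neonates miR-199a-3p was above 0 under all 8 scalings, from 0.21 to 0.95, and miR-199a-5p below 0 under all 8, from -0.16 to -0.90. miR-214 in neonates was below 0 except with raw Ct (0.29).

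The other assays of these hairpins were above room air in hyperoxic neonates, by 0.98 log2 for rno-miR-214, 0.61 for miR-199b* and 0.30 for miR-214*. In adults they were at -0.10, -0.09 and -0.02, all within the technical SD of 0.33. The mouse-named miR-214 assay, at -0.23 in neonates, went against the rat-named one, so no direction can be given for miR-214 after neonatal hyperoxia.

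Other miRNAs of mesenchyme did not share the adult decrease as a group, with a list median above 0 under all 8 scalings. In a list of 11 mesenchyme and fibroblast miRNAs, 10 matched a row and were fitted, of which 5 rose and 1 fell with age, where 5.63% of the 426 assays rose and 30.0% fell, with a median of 1.17 log2 against -0.84 over all assays. The 5 that rose were miR-22 by 2.31, miR-100 by 1.74, miR-99a by 1.58, miR-497 by 1.57 and miR-10b, a Hox cluster miRNA, by 1.46. Each of these rows was above 0 under every scaling. A rat-named miR-10b assay on the second card went the other way, at -1.06, and did not pass (limma, adjusted p = 0.196). miR-218, from the Slit genes, fell by 1.85 but was at 0.96 with U6. miR-10a at 1.05 and miR-140, known from cartilage, at 1.16 were 2-fold higher in the adult in room air, and did not pass the fit. Of 435 assays 72 were at least 2-fold higher there.

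Among 6 miRNAs linked to fibrosis, 5 were fitted and 3 rose, against 5.63% of all assays: miR-29a by 3.09, miR-29b by 5.49 and miR-29c, repressors of collagen genes like the other miR-29 miRNAs, by 4.15 (list median 3.09). These 3 were above 0 under every scaling, though miR-29b differed by -4.35 log2 between adult hyperoxia and adult room air. miR-21 was at 1.35 (limma, adjusted p = 0.0630). let-7d was at -1.06 in hyperoxia and -0.26 in room air. miR-155 had no neonatal room air value at Ct 35 or below. In smooth muscle, miR-145 was at 1.18 and miR-143 at 0.34, and neither passed on the snoRNA202 scale. The summed level of miR-143 and miR-145 was -0.61 and -0.48 in adult hyperoxia and room air, against -1.41 and -1.70 in neonatal hyperoxia and room air. This sum weights the assays by their unknown efficiencies.

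Lists of other lung cell types were varied. The endothelial miR-126-5p was at 0.57 and did not pass. The listed miR-126-3p matched no row by that name; a row named mmu-miR-126, looked up after its values were seen, was at -0.42 and did not pass either (limma, adjusted p = 0.241 for miR-126-5p and 0.374 for mmu-miR-126). Of 4 leukocyte miRNAs 0 passed in the fit (limma; median 0.64), and miR-142-5p at 1.18 and miR-142-3p at 1.08 were 2-fold higher in adult room air. In the epithelial list 9 were fitted and 2 fell, against 30.0% of all assays, miR-205 (-2.23) and miR-182 (-1.67), both above 0 with U6 (list median -0.39). miR-183 (-2.38 in hyperoxia and -1.05 in room air) and miR-429 (-1.98 and -1.16) were 2-fold lower in the adult in both atmospheres. miR-200c was at -1.63 in hyperoxia but 0.84 in room air. A rat-named miR-200c assay differed from these values by 0.94 in hyperoxia and -1.41 in room air, and was lower in the adult in both. In the list of cardiac and skeletal muscle miR-206 fell by 2.91, below 0 under every scaling (1 of the 5 fitted, with a list median of -0.45). miR-208b was at -1.96 in hyperoxia and -0.99 in room air. miR-133b (-1.18) and miR-133a (-1.03) were 2-fold lower in the adult in hyperoxia but lay at 0.27 and 0.84 in room air. Of 3 erythroid miRNAs 0 passed (limma; median -0.91), with miR-144 at -1.16 and miR-486 at -1.03 in room air. The part of any cell type in the members' age effect was not tested.

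The assays whose levels ran most like the unit were taken by the root mean square distance between profiles over the 4 libraries, each centred on its own mean, from the mean profile of the members. That profile was -1.29 in adult hyperoxia, -0.85 in adult room air, 0.99 in neonatal hyperoxia and 1.15 in neonatal room air. Among 388 candidates the nearest were miR-322 (0.080 log2), miR-186* (0.106), miR-130b (0.115), miR-106b* (0.126) and the rat-named miR-322* (0.147). Their fitted age effects were -2.29, -2.13, -2.33, -2.20 and -1.99 in the same order. A decrease of this kind follows from the choice by profile and is no test. The members themselves lay farther from their mean, miR-199a-5p at 0.197, miR-214 at 0.433 and miR-199a-3p at 0.540. With 4 libraries that differ mainly by age, this likeness is a description of an adult decrease of about the same size.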

How the data were processed

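Per the labels' protocols, Megaplex primer sets A and B served for reverse transcription of lung RNA and for preamplification, and TaqMan assays gave the signal. The authors deposited 1 Ct per well, a score that falls as RNA rises (40 with no signal), and log2 delta Ct, Ct minus that of snoRNA202, per the file headers. PCR software and thresholds were not named in these sources. In the adult room air library 385 of 768 wells used the other card's snoRNA202, so delta Ct was recomputed with the own card for every well and its sign turned. No member's well was affected. There is no read depth for this assay, and Ct stands in its place. Whether libraries are separate animals is not stated. With 1 library per group, the residual of the additive fit is the departure of the age difference between the 2 atmospheres. That departure can be technical or a true difference, and limma moderates it across assays. A p-value therefore does not measure a spread between animals or repeats. Additive effects of age and oxygen were fitted across all 426 assays with Ct 35 or below in all libraries with limma 3.58.1 (R 4.3.3; 1 residual and 2.16 prior degrees of freedom; Benjamini-Hochberg adjusted, threshold 0.05); errors of the reference RNA are not in its standard errors. The fit was run on simulated data with independent noise of equal size for all assays and no error of the reference RNA. That run checked the code and not the calls in these libraries. Named are all members, further strands of their hairpins, assays sharing a seed, list members that passed the fit or differed by 1 log2 unit, and the 5 nearest profiles with Ct 32 or below. A repeat assay, rno-miR-214, and the pairs of mouse-named and rat-named assays were added after their values were seen. Of 49 list entries 4 matched no row. The members and lists were chosen with earlier results of these data known.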

Additional observations from a re-analysis of the deposited data

Results flagged for a closer look

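The response of miR-199a-3p to hyperoxia ran opposite ways at the ages. It was -0.40 log2 in adults, past the technical SD of 0.33, and 0.43 in neonates, past that of 0.26. The adult value minus the neonatal one was -0.83. Each age had 1 hyperoxia and 1 room air library, so this difference was not tested. The opposite signs rest on the reference. The adult value was -0.16 with U6, -0.15 with snoRNA135 and snoRNA202, -0.12 with all control RNAs and -0.08 with each card centred, all within 0.33, against neonatal values of 0.34, 0.36, 0.21 and 0.22. Both ages were above 0 with the library mean (0.27 in adults and 0.26 in neonates) and with raw Ct (0.19 and 0.95).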

How the results depend on the processing

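No paired analysis was possible because each group holds 1 library. For age, 2 members were called on the snoRNA202 scale. With U6, 1 was called (miR-199a-3p, reversed to 1.67); miR-199a-5p reversed to 0.54 and miR-214 weakened to -0.19, and the median of the members turned to 0.23 in room air and 0.85 in hyperoxia, with 1 member 2-fold different in each (single values of 0.23 for miR-199a-5p in room air, and 1.42 for miR-199a-3p and 0.85 for miR-199a-5p in hyperoxia). With each card centred, 1 was called; miR-199a-5p was at -0.87, miR-199a-3p reversed to 0.26 (0.10 in hyperoxia), and the medians were -1.28 in room air and -0.47 in hyperoxia, with 1 member 2-fold different in hyperoxia. One call was left where miR-199a-5p missed the threshold with all control RNAs (-1.68), with the library mean (-1.44) and with raw Ct (-1.62). With no limit on Ct and with ordinary least squares 0 were called, at the same values of -2.28 and -3.00. With the library mean the hyperoxia age median was -0.88, with 1 member 2-fold different, the median response of adults to oxygen was 0.27, and in room air rno-miR-214 turned to 0.0333 and miR-199b* to 0.21. Raw Ct, added later, turned these to 0.23 and 0.41, the fitted oxygen effects to 0.0185 for miR-199a-5p and 0.18 for miR-214, and the median oxygen responses to 0.29 in neonates and 0.19 in adults. Over all assays 24 rose and 128 fell with age. U6 gave 196 up and 71 down, the mean of snoRNA135 and snoRNA202 50 and 112, all controls 40 and 118, the library mean 99 and 77, card centring 136 and 84, and raw Ct 32 and 63. miR-214* lost its call with U6 (-1.001), the library mean (-0.46), card centring (-0.94), raw Ct (-0.65), and at an equal value of -1.89 with no limit on Ct and with ordinary least squares. The cause of these changes was not tested. The changes of the gaps between members were equal with raw Ct. Of the alternatives, stricter Ct limits and leaving out row L of the first card changed no call of a member; miR-199b* passed under both (adjusted p = 0.0362 and 0.0428). rno-miR-214 lost its call with U6 (-1.07), snoRNA135 and snoRNA202 (-1.77), all controls (-2.07), the library mean (-0.53), card centring (-1.01) and raw Ct (-0.71), with no limit on Ct and with ordinary least squares.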
